A study of Gallus gallus with 18 samples.

Results

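The regions described here are 5 kb bins of chicken chromosomes 1 to 5, the largest autosomes of the karyotype, in which RNA coverage was found in induced HD3 cells and nowhere else. A bin was taken when both libraries of induced cells covered at least 1 base of it and both DT40 and both proliferating HD3 libraries covered none. Of 120869 bins, 8010 met this rule, or 6.63%. The rule reads the coverage itself, so the number and level of these bins are a description and carry no test. Coordinates are those of galGal4, counted from base 1.

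The study profiled total RNA depleted of ribosomal RNA from 3 groups of cultured chicken cells, with 2 libraries per group. HD3dif cells, labelled HD3ind, are HD3 cells kept for 14 h at 42 °C in air with 20 μM iso-H-7 (a protein kinase inhibitor) and 10 mM HEPES, and the labels describe them as producing hemoglobin. HD3pr cells, labelled HD3, are the same line growing at 37 °C with CO2; HD3 is an erythroblast line transformed by avian erythroblastosis virus and derived as 1 clone. DT40 cells are a bursal lymphoma line induced by avian leukosis virus in a Hyline SC chicken and were grown as the HD3pr cells were. Inhibitor, heat, buffer and atmosphere changed together in the induction, so their parts in any difference between HD3dif and HD3pr cannot be told apart. Gene identifiers could not be paired with symbols, so erythroid and lymphoid markers were not checked here, and no gene is named for a region.

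As background, a library of this kind samples RNA without selecting for a poly(A) tail. It therefore holds unspliced and intergenic transcripts beside mature messenger RNA. In terminal erythroid differentiation, cells stop dividing, condense their nuclei, shut down most genes and make globins in large amounts. Sequence between genes can be transcribed at a low level, in part by polymerase that reads on past the end of a gene. The large chromosomes of birds carry long stretches with few genes, whereas the small ones are dense in genes.

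The total number of reads did not set the HD3dif libraries apart, but their summed coverage and the spread of their reads did. The HD3dif libraries held 56204690 and 72817624 reads, the HD3pr libraries 68821944 and 64523296, and the DT40 libraries 53441424 and 60297291. Summed coverage, in units of 1e+09, was 18.26 and 22.16 in HD3dif and 27.16 and 26.37 in HD3pr. In DT40 it was 23.90 and 27.95, so both HD3dif libraries lay below all 4 others. Summed coverage includes the gaps of spliced reads, so it does not measure depth alone. Reads on genes were also fewer in HD3dif, at 20100063 and 24054973, against 28726204 to 33433279 in the 4 others. Reads that the counts placed in no gene feature made up 46.6% and 45.9% in HD3dif, 33.3% and 34.1% in HD3pr, and 26.9% and 28.7% in DT40. Whether reads in introns are among them cannot be told from the counts, so this is not a share of reads between genes. The HD3dif libraries covered 75.9% and 79.4% of the 5 kb bins of chromosomes 1 to 5, the HD3pr libraries 56.4% each, and the DT40 libraries 56.2% and 58.1%. Both HD3dif values lay above all 4 others, so a wider spread of reads over the genome moves with the result described here, and its part in it was not tested. Fewer transcribing cells and less RNA per cell cannot be told apart in such bulk samples.

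The exchange of the groups in the same rule gave far fewer bins. Against the 8010 bins of HD3dif, only 138 were covered in both HD3pr libraries and at 0 in the other 4, which is 58.0 times fewer. DT40 gave 1802 such bins, 4.45 times fewer. As a share of all bins this was 6.63% for HD3dif, 0.114% for HD3pr and 1.49% for DT40. The HD3pr and DT40 bins had to be at 0 in the HD3dif libraries, which covered more bins than the 4 others. The part of this in the counts was not tested. The HD3dif bins were more thinly covered than the DT40 bins. Their median was 2 reads in each HD3dif library, and 7.47% had at least 500 covered bases in both. The DT40 bins had a median of 7.80 and 9 reads in the 2 DT40 libraries, and 47.8% of them reached 500 covered bases in both. The HD3pr bins were thin as well, with a median of 2 reads in each HD3pr library and 15.2% at 500 covered bases in both. A read here is 100 covered bases, the read length seen in the tracks, so a value is the summed coverage of a bin divided by 100.

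The bins at 0 in all 4 DT40 and HD3pr libraries numbered 27692, or 22.9% of all bins. Of these, 28.9% were covered in both HD3dif libraries, 43.4% in 1 of them and 27.7% in neither. HD3dif replicate 1 alone covered 4935 of the silent bins and replicate 2 alone 7076. The 8010 bins are thus those of the silent bins that both libraries reached. A further 6854 bins were covered in both HD3dif libraries and in exactly 1 of the 4 others, which was an HD3pr library for 3936 bins and a DT40 library for 2918.

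The edges of the rule show how thin its line is. The bin just inside, chr4:74300001-74305000, had 99 covered bases in HD3dif replicate 1 and 1 in replicate 2. The bin just outside on the control side, chr1:116380001-116385000, had 192 and 23 covered bases in HD3dif and a single covered base in HD3pr replicate 2. On the other side, chr1:9795001-9800000 had all 5000 bases covered in HD3dif replicate 1 and none in replicate 2. Most of its 52 reads came from a long interval of constant value, such as the gap of a spliced read leaves in these tracks, and 3.92 reads remained without it.

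How much of the pattern a single library carries was read from libraries that the choice had not used. When the bins were chosen on the replicate 1 libraries (covered in HD3dif, at 0 in HD3pr and DT40), 18649 bins were found. Replicate 2 then covered 65.4% of them in HD3dif, 17.7% in HD3pr and 16.8% in DT40. Among the 18803 bins at 0 in all 3 replicate 1 libraries, the shares were 49.0% in HD3dif, 9.95% in HD3pr and 13.1% in DT40. The reverse choice gave 20583 bins, of which replicate 1 covered 57.1% in HD3dif, 16.4% in HD3pr and 13.3% in DT40. The 15528 bins at 0 in the choosing libraries gave 40.4%, 9.38% and 10.7% in the same groups. In both directions the HD3dif share was above those of HD3pr and DT40, also for bins that the choosing HD3dif library had at 0. Among all bins, replicate 2 covered 79.4% in HD3dif, 56.4% in HD3pr and 58.1% in DT40. Replicate 1 covered 75.9%, 56.4% and 56.2%, so HD3dif was also highest without any choice. The choice also took only bins at 0 in the choosing HD3pr and DT40 libraries. The parts of the choice and of the wider spread of HD3dif reads were not tested, so the order is a description only. Since 17.7% and 16.4% of the chosen bins were covered in the other HD3pr library, a value of 0 in HD3pr means not detected at this depth.

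**Figure D1:**
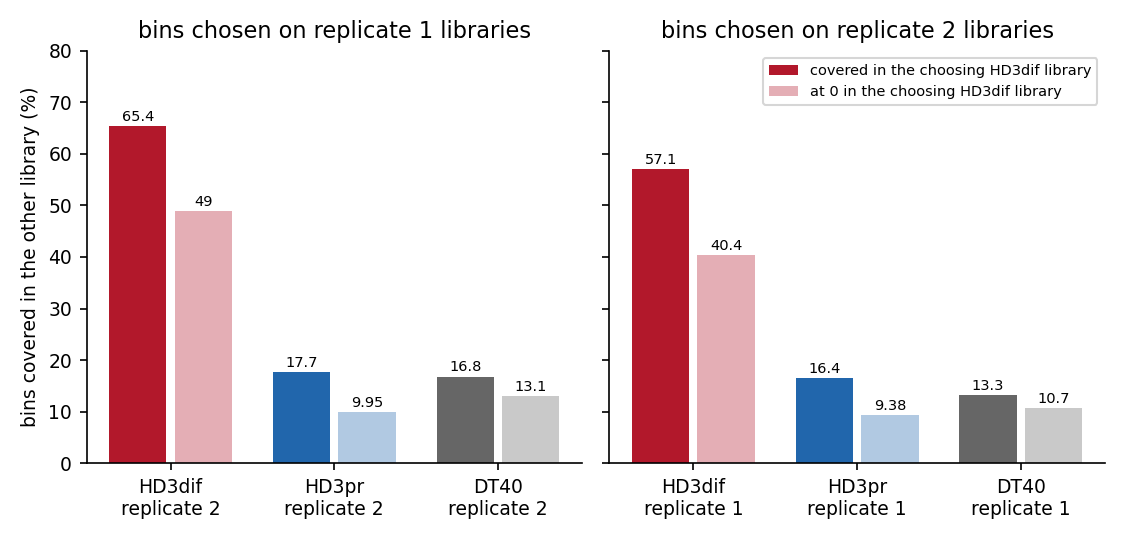
Share of bins (%, y axis) covered in the libraries that were not used to choose them, for bins chosen on the replicate 1 libraries (left) and on the replicate 2 libraries (right). Full bars are bins covered in the choosing HD3dif library (65.4% and 57.1% covered again in HD3dif), pale bars are bins at 0 in all 3 choosing libraries (49.0% and 40.4% in HD3dif).

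Most of the bins held little RNA. The 8010 bins summed to 35972 reads in HD3dif replicate 1 and 36132 in replicate 2. This is 0.0197% and 0.0163% of the summed coverage of these libraries, in which gaps of spliced reads are included. The lowest value in either library was 0.01 reads, the median 2, and the highest 223 in replicate 1 and 317 in replicate 2. The 90th percentile was 8 reads in both libraries. In the median bin 200 bases, or 4% of its length, were covered in each library. A level of exactly 2 reads was the commonest value, in 2951 bins of replicate 1 and 2648 of replicate 2, ahead of 1 read in 1292 and 1231 bins. For 2930 bins neither library held more than 2 reads.

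A minority of the bins stood well above that floor. At least 10 reads in both HD3dif libraries were found in 326 bins, and at least 50 reads in 23. The 80 highest bins of each library, or 1 in 100, held 15.8% of the reads of the set in replicate 1 and 15.7% in replicate 2. Each library was ranked by itself, with gaps of spliced reads included, so these need not be the same bins. In 68 bins every base was covered in at least 1 HD3dif library. The gap of a single spliced read can also cover a whole bin, and this count was not repeated without gaps. The replicates ranked the bins loosely: across bins, Pearson's r of the log2 reads was 0.50 and Spearman's rho 0.34 (8010 bins that share the same 2 libraries, a description only). The levels of the 2 libraries lay within 4-fold of each other in 7282 bins. The reads of the 2 libraries fell on shared bases in 2032 bins, or 25.4%. Of the bases covered in replicate 1, 15.7% were also covered in replicate 2, which covered 6.85% of the bases of the set. The 15.7% leans on widely covered bins, whereas the 6.85% is pooled over the whole set. The 2 shares are thus not alike, and whether reads recur at the same bases within a bin was not tested.

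**Figure D2:**
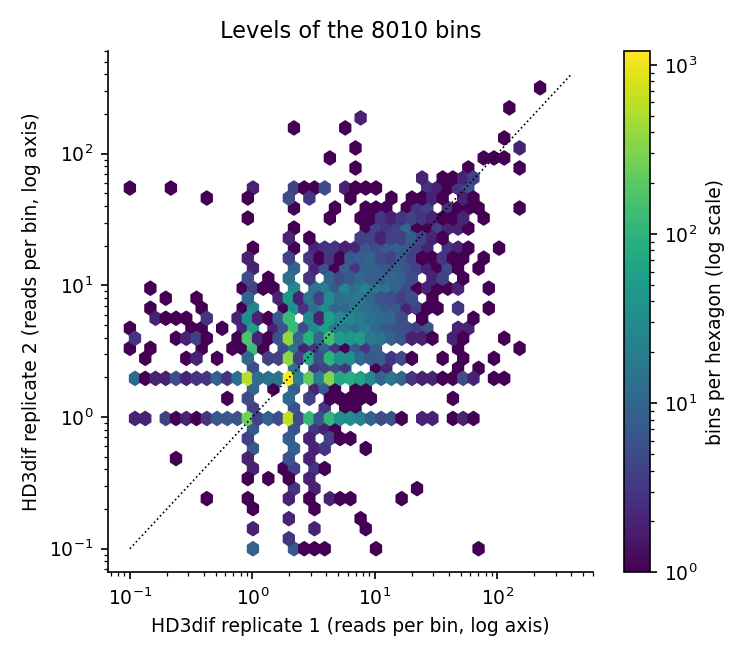
Reads per bin (summed coverage divided by 100) of the 8010 bins in HD3dif replicate 1 (x axis) and replicate 2 (y axis), both on log axes; colour gives the number of bins per hexagon and values under 0.1 are drawn at 0.1. Most bins crowd at 1 to 4 reads, and 326 bins with at least 10 reads in both libraries form the tail along the dotted line of equal values.

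The highest bin was chr5:15325001-15330000, with 223 and 317 reads in HD3dif and 0 in both HD3pr and both DT40 libraries. All 5000 bases were covered in both HD3dif libraries, at a mean depth of 4.46 and 6.33. The rule fixes the 0 in the other libraries, so no fold is given for these bins. The group of 10 highest bins, ordered by the lower HD3dif library, continued with chr2:89890001-89895000 (127 and 229 reads) and chr2:69115001-69120000 (110 and 122 reads). The bin chr3:84910001-84915000 had 153 and 108 reads. Next came chr1:68815001-68820000 with 154 and 104 reads, of which only 20.4 and 18.9 remained when constant intervals over 500 bases were left out. Every base of this bin was covered, as the gap of spliced reads would leave it. The reads that remained were still above the 90th percentile of the set, 8 reads in each library. The remaining 5 were chr5:28100001-28105000 (113 and 86.5 reads), chr2:16550001-16555000 (85.9 and 95.2), chr4:44610001-44615000 (147 and 81.6), chr2:117790001-117795000 (73.6 and 85.2) and chr2:69105001-69110000 (64.3 and 67.0). Over the set, 141 bins held such a long constant interval, and 28 would fall to 0 in an HD3dif library without them. A single gap that spans a bin adds 50 reads to its value. Without such intervals, 312 bins in place of 326 held at least 10 reads in both HD3dif libraries, and 15 in place of 23 held at least 50.

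Around these high bins, other bins were also higher in HD3dif. Among the 20 bins within 50 kb of each, both HD3dif libraries were above all 4 others in 10 to 20 bins, with a median over the 10 places of 16.5. Around the highest bin on chromosome 5 this held for 20 of 20 bins, whose median was 184 and 301 reads in HD3dif, 2 and 2 in HD3pr and 0 and 0 in DT40. Around chr3:84910001-84915000 it also held for 20 of 20 bins, with medians of 75.9 and 95.1 reads in HD3dif, 0 and 0.50 in HD3pr and 0 and 0 in DT40. Around chr2:89890001-89895000 it held for 10 of 20, and the median was 9.0 and 7 reads in HD3dif, 2.5 and 1 in HD3pr and 0.74 and 2.5 in DT40. Bins with at least 10 reads in both HD3dif libraries and over 5 times the highest other library numbered 1 to 19 of the 20, with a median of 10.5; the 1 belongs to chr2:89890001-89895000 and the 19 to the highest bin. These surroundings were examined after the values of the bins were known. The shares of all bins that meet these 2 conditions were not computed, so the counts are a description only. By a looser limit of 5 reads and the same 5-fold, 4036 of the 120869 bins were met. HD3dif was also called higher than HD3pr in 35.6% of all bins tested.

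One such block shows the shape in full. On chromosome 5, the 115 kb from chr5:15250001-15365000 lie between 2 regions that were strongly covered in all 6 libraries, one ending at base 15245000 and the other starting at base 15390001. In the 25 kb between the block and the right-hand region the controls held fewer reads than in that region. The bin next to the block, chr5:15365001-15370000, had 285 and 327 reads in HD3dif, 111 and 114 in HD3pr and 77.6 and 74.4 in DT40. Further right, chr5:15380001-15385000 had 379 and 509 reads in HD3dif, 24.8 and 45.9 in HD3pr and 9 and 9.29 in DT40. Within the 115 kb the median bin had 142 and 191 reads in HD3dif, 1 and 1 in HD3pr and 0 and 0 in DT40. The level was not even. In the right-hand 70 kb of the block the median was 196 and 310 reads in HD3dif, against 2 and 1.50 in HD3pr and 0 in both DT40 libraries. In the 45 kb beyond, it was 28.3 and 26.6 reads in HD3dif, 0 and 1 in HD3pr and 0 in both DT40 libraries. In the right-hand region itself the order of the groups in unscaled reads changed along its length. Near its start, chr5:15395001-15400000 held 1612 and 2797 reads in HD3dif, 3463 and 4082 in HD3pr and 3203 and 2896 in DT40. Further right, chr5:15425001-15430000 held 7171 and 7908 reads in HD3dif, 3002 and 3032 in HD3pr and 2823 and 3676 in DT40. Only 4 of the 23 bins of the block belong to the set, since the others had control reads.

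A longer and weaker slope was seen on chromosome 2. The window chr2:69000001-70000000 held 43 bins of the set among 77 silent bins. Going left to right along 400 kb towards it, in steps of 100 kb from chr2:68620001, the median bin held 0.50 and 0 reads in HD3dif, then 0 and 1.96, then 2 and 3, and then 8 and 8.30. In chr2:69020001-69080000 the median was 16 and 16.3 reads, and in chr2:69085001-69150000 it was 45.7 and 48.2. The HD3pr and DT40 medians were 0 in all 6 of these intervals. In the last 70 kb before a block transcribed in all libraries, chr2:69160001-69230000, the HD3dif median was 43.6 and 47.1 reads, against 1.50 and 1 in HD3pr and 0 in both DT40 libraries. Single bins inside the slope were strongly covered in every group: chr2:69080001-69085000 held 13284 and 15239 reads in HD3dif, 10786 and 11400 in HD3pr and 547 and 674 in DT40. In the block to the right HD3dif held the fewest reads. These reads are not scaled to summed coverage, which was lowest in the HD3dif libraries, so no lower level in HD3dif is read from this block. For instance, chr2:69240001-69245000 held 2343 and 2577 reads in HD3dif, 5029 and 4793 in HD3pr and 5295 and 6015 in DT40.

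**Figure D3:**
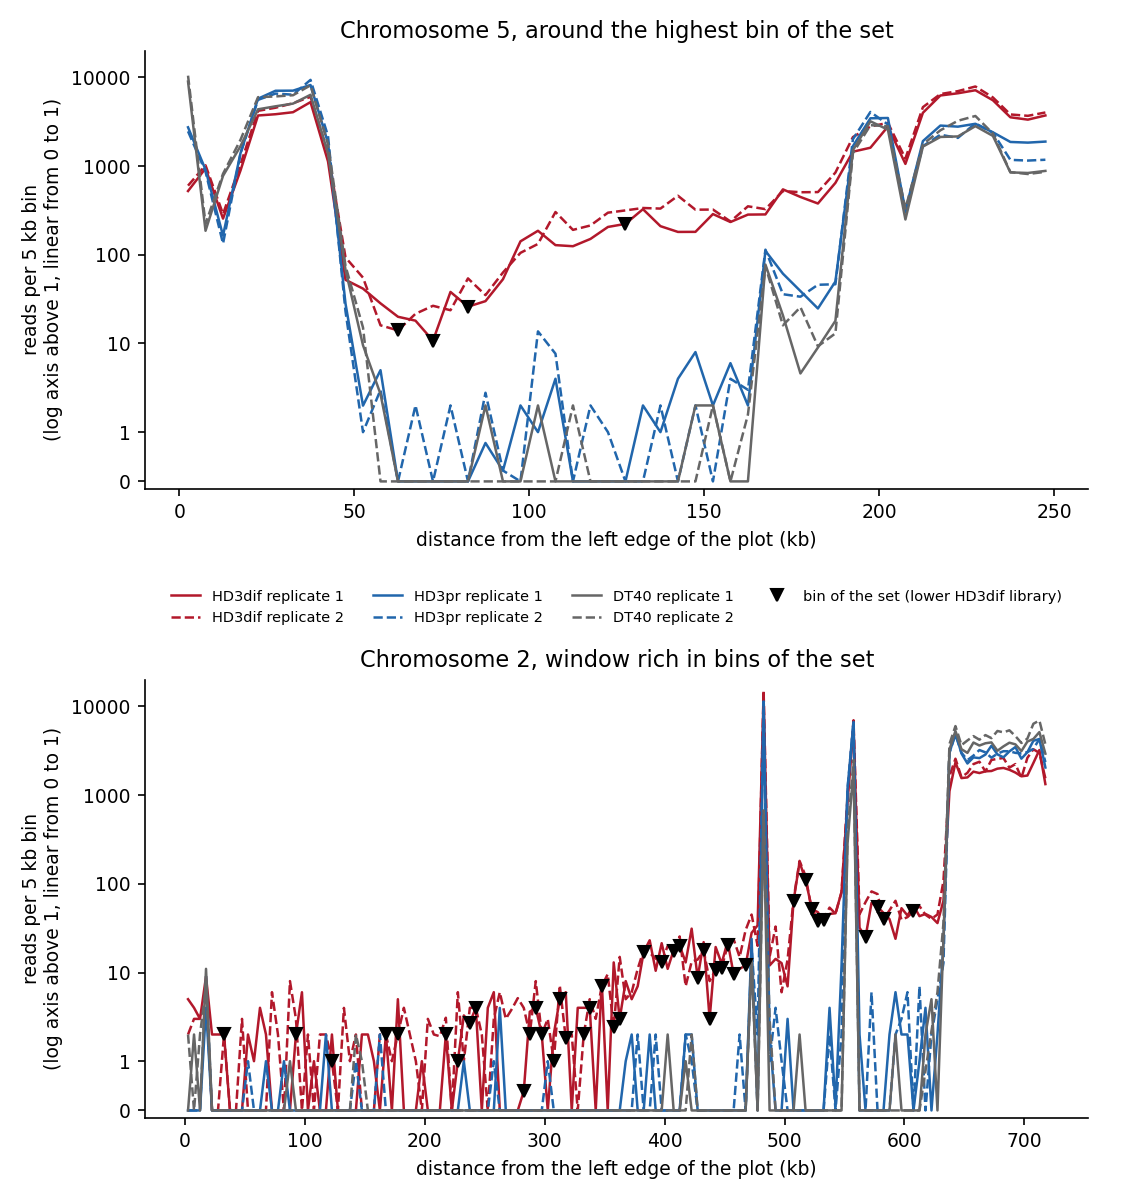
Reads per 5 kb bin (y axis, log above 1) along 250 kb of chromosome 5 (top) and 720 kb of chromosome 2 (bottom) in HD3dif, HD3pr and DT40, each replicate as a line, with triangles on the bins of the set at the lower HD3dif value. In the low stretch of the top panel the HD3dif lines lie above the others and slope down with distance from the right. In the bottom panel they do so in most low bins of the right-hand part, but lie below the others in the block at the right end. At the left end all 6 lines lie between 0 and 11 reads. Reads in both panels are not scaled to the summed coverage of the libraries, which was lower in HD3dif.

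Such a slope also ran through 1 of the longest unbroken stretches. In chr5:2905001-2935000, 6 neighbouring bins of the set held 2, 6, 13, 12, 24 and 26.7 reads from left to right in HD3dif replicate 1, and 2, 10, 10.3, 26.7, 30 and 42.1 in replicate 2. Both HD3pr and both DT40 libraries were at 0 in all 6 bins. To the right, the next bin held 66.7 and 80.5 reads in HD3dif, 0 and 0 in HD3pr and 0 and 2 in DT40. The third bin to the right held 392 and 576 reads in HD3dif, 948 and 857 in HD3pr and 722 and 876 in DT40, so that here the strongly covered end was not higher in HD3dif. Left of the stretch the bin at its border was at 0 in all 6 libraries.

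Bins of the set were mostly single. They formed 6364 stretches of consecutive bins, of which 5139 were 1 bin long and held 64.2% of the set. There were 939 stretches of 2 bins, 200 of 3, 53 of 4, 22 of 5, 7 of 6, 3 of 7 and 1 of 8. A neighbour in the set was found for 35.8% of the bins. For silent bins outside the set the share next to a bin of the set was 25.4%, and for those at 0 in both HD3dif libraries it was 21.6%. Among all bins of the 5 chromosomes the share was 12.1%. The 138 HD3pr bins had a neighbour of their own kind in 7.25% of cases and the DT40 bins in 32.9%. These 2 sets make up only 0.114% and 1.49% of all bins, against 6.63% for the HD3dif set. Their shares thus cannot be ranked directly against 35.8%. Levels were higher in longer stretches: the median was 2 and 2 reads for single bins, and 5 and 4 reads in stretches of 5 or more. At least 500 covered bases in both libraries were found in 5.97% of single bins and in 26.5% of the bins of stretches of 5 or more.

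The longest stretch was the 40 kb of chr1:107510001-107550000. Its 8 bins held 40 and 32.0 reads in all in HD3dif, at 2 to 8 and 1 to 8 reads per bin, and none in HD3pr and DT40. The 3 stretches of 35 kb were chr2:69025001-69060000 with 97.7 and 106 reads, chr3:44700001-44735000 with 101 and 33, and chr2:103170001-103205000 with 22.7 and 19. The replicates were thus close in the 2 stretches on chromosome 2 and 3 times apart in the one on chromosome 3, which held 81.4 and 33 reads without long constant intervals. Of the 30 kb stretches, the 6 highest included chr5:2905001-2935000 described above, with 83.7 and 121 reads in all. The stretch chr1:180110001-180140000 held 21 and 161 reads, but 21 and 24.9 without long constant intervals. The others were chr5:18000001-18030000 (49.0 and 65.0 reads), chr1:164090001-164120000 (54 and 54), chr1:186370001-186400000 (44.0 and 61) and chr2:126290001-126320000 (21 and 24).

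Wider tracts were counted after these places had been seen. A tract was a run of bins in which both libraries of 1 group held at least 5 reads and more than 5 times the highest library of the other groups. The reads were unscaled and included gaps of spliced reads, so a long gap in each library of a group can make or extend a tract. Tracts were not counted without such gaps. HD3dif had 200 tracts of at least 20 kb and HD3pr had 23, while DT40 had 395. At least 50 kb was reached by 23 tracts in HD3dif, 4 in HD3pr and 154 in DT40. Of the 200 HD3dif tracts, 83 held bins of the set, 178 bins in all or 2.22% of it. The longest HD3dif tract, chr4:44360001-44615000, ran over 255 kb at a median of 425 and 357 reads per bin in HD3dif, 6 and 5 in HD3pr and 0 and 0 in DT40, and ended in 1 bin of the set. The other 4 of the 5 longest held none, because HD3pr covered them at a lower level.

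The place of the bins was also read relative to coverage already present in HD3pr. A bin was called well covered when both HD3pr libraries held at least 50 reads, a mean depth of 1, and 37130 bins were. Gaps of spliced reads count as coverage here. A single gap that spans a bin adds 50 reads, so a well covered bin need not hold a read. How many such bins there were was not counted. The set lay at a median of 95 kb from the nearest of them, and silent bins outside the set at 165 kb. Of the set, 30.3% lay within 50 kb, against 15.4% of the silent bins outside it. The 326 bins with at least 10 reads in both HD3dif libraries were closer, at a median of 30 kb, with 72.1% within 50 kb, against 102.5 kb and 28.5% for the rest of the set. Among silent bins, those in the set made up 46.1% at 5 kb, 54.5% at 10 kb, 33.0% at 55 to 100 kb and 19.0% beyond 500 kb. The mean level of the bins of the set was 8.03 and 8.05 reads at 10 kb, and 2.27 and 3.10 reads beyond 500 kb. Even so, 2171 bins, or 27.1% of the set, lay more than 200 kb from any well covered bin.

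The length of the silent run around a bin went with the same order. Where a single 5 kb bin was at 0 in DT40 and HD3pr, 39.1% belonged to the set. The share was 33.2% in runs of 10 kb, 29.0% in runs of 15 to 20 kb, 24.7% in runs of 25 to 45 kb and 19.7% in runs of 50 to 95 kb. In the 13 silent runs of 100 kb or more it was 8.13%, and 62.9% of their bins were at 0 in both HD3dif libraries too. A run of zeros can also hold gaps or repeats in the assembly, in which no read can be placed, and their share was not measured.

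**Figure D4:**
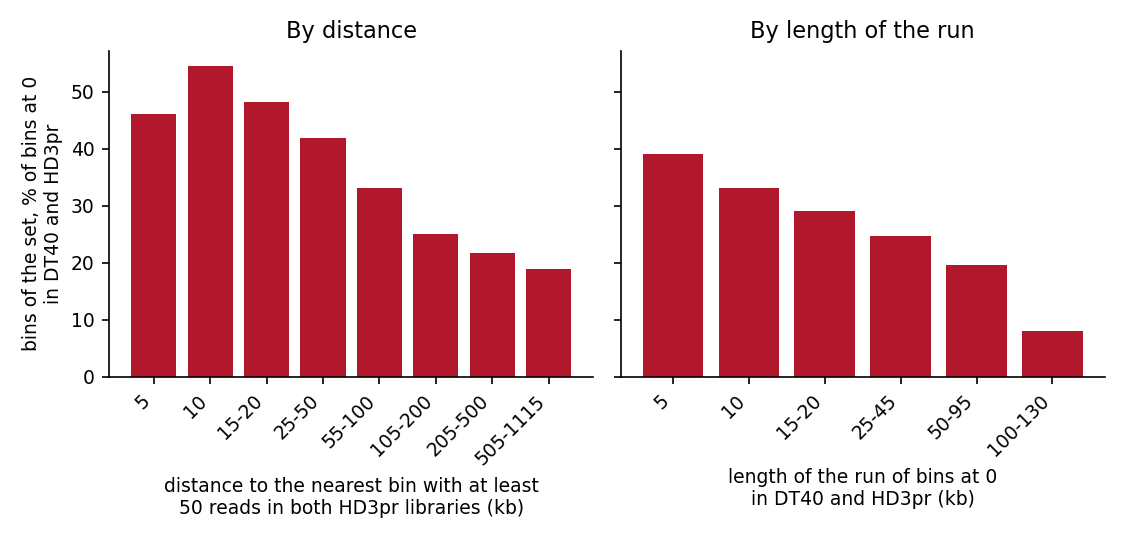
Bins of the set as a share (%, y axis) of the bins at 0 in DT40 and HD3pr, by distance from the nearest bin with at least 50 reads in both HD3pr libraries (left, kb) and by the length of the run of bins at 0 (right, kb). The share is 54.5% at 10 kb and 19.0% beyond 500 kb, and 39.1% for single bins and 8.13% in runs of 100 kb or more. The HD3pr reads include the gaps of spliced reads.

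By number the set followed the size of the chromosomes and the silence of their sequence. Chromosome 1 held 3101 of the bins, chromosome 2 held 2048, chromosome 3 held 1278, chromosome 4 held 1024 and chromosome 5 held 559. As a share of the bins of the chromosome this was 7.94%, 6.88%, 5.79%, 5.68% and 4.69%. The share of silent bins had the same order, with 26.9%, 25.1%, 20.4%, 19.9% and 13.8%. Bins of the set are silent bins by the rule, so a shared order is in part built in. Relative to the silent bins the chromosomes came closer together, at 29.6%, 27.5%, 28.4% and 28.5% for chromosomes 1 to 4 and 33.9% for chromosome 5. Chromosome 5 also had the highest mean level, 5.64 and 5.60 reads per bin, against 4.09 to 4.76 and 3.96 to 4.79 on the others. By the same rule, chromosomes 6 to 28 gave 3180 of 63026 bins, 5.05% of the bins and 37.1% of the silent ones. Chromosome Z gave 929 of 16473, or 5.64% of the bins and 17.8% of the silent ones.

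**Figure D5:**
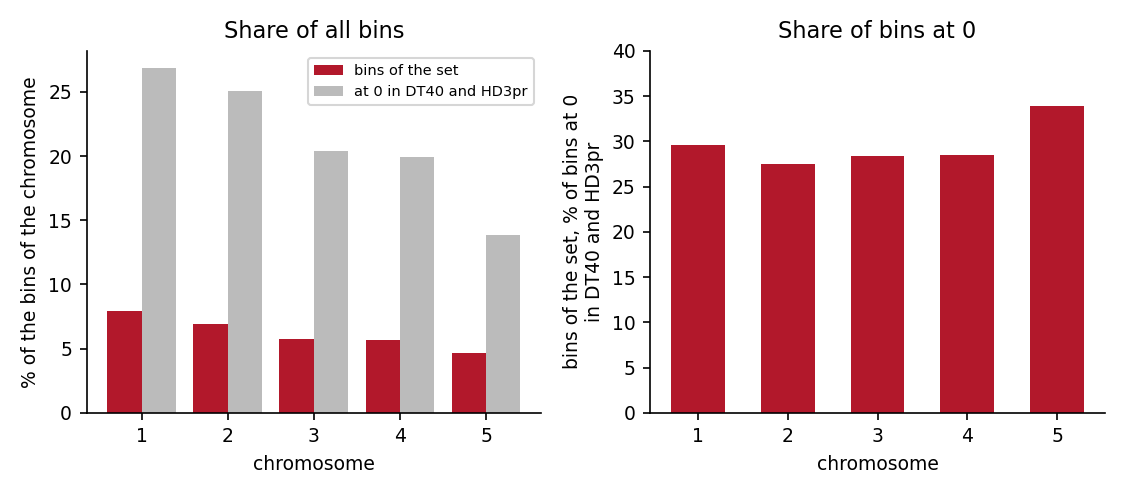
Left, bins of the set (red) and bins at 0 in DT40 and HD3pr (grey) as a share of all bins of chromosomes 1 to 5 (%). Right, bins of the set as a share of the bins at 0, which is 27.5% to 29.6% on chromosomes 1 to 4 and 33.9% on chromosome 5.

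Along the chromosomes the bins were spread widely and unevenly. Of 602 windows of 1 Mb, 25 held none, the median held 12 and the richest held 51. The 133 windows with 20 or more, 22.1% of the windows, held 41.8% of the set. The number in a window went with its number of silent bins (Spearman's rho 0.82). Each bin of the set is itself a silent bin, so the rule builds in a part of this. The richest, chr1:190000001-191000000, held 51 bins of the set among 142 silent ones, with 107 and 126 reads in all. The window chr2:69000001-70000000 had fewer, 43 among 77, but 761 and 914 reads, and chr1:188000001-189000000 had 43 among 101 with 112 and 124 reads. High numbers and high levels thus did not go together in these 3 windows. Among the 299 windows with at least 40 silent bins, the share of these in the set ran between 8.21% in chr2:57000001-58000000 and 60.7% in chr1:192000001-193000000, with a median of 25.7%. The first and last 2 Mb of the 5 chromosomes held 218 bins, or 29.6% of their silent bins, beside 28.9% overall.

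The bins that border the stretches were tested for the 2 contrasts of the cell types. There were 11701 such bordering bins outside the set. The median bordering bin held 1 and 2 reads in HD3dif and 0 in each HD3pr and DT40 library, and 34.6% were covered in both HD3dif libraries. A limma test was run on all bins with a summed coverage of at least 500 in at least 2 of 6 libraries, and a bin was called past 0.6 on the log2 scale at an adjusted p (Benjamini-Hochberg) below 0.05. Of 1868 bordering bins tested, 1187 were called higher in HD3dif and 15 lower, relative to HD3pr, with a median log2 fold change of 2.28. Over all 69050 bins tested 35.6% were higher and 9.16% lower, with a median of 0.71. The rule used this contrast and most bordering bins pass the filter through HD3dif, so nothing is read from these counts. With a filter on the 4 DT40 and HD3pr libraries alone, added after seeing this, 261 of 662 bordering bins (39.4%) were higher, against 30.6% of all bins. With the first filter but without HD3dif replicate 1, 202 of 971 were higher (20.8%), against 21.3% of all bins. Without HD3dif replicate 2, 203 of 954 were higher (21.3%), against 21.6%. Leaving out an HD3dif library leaves 1 in its group. A bordering bin then also needs a DT40 or HD3pr library to pass the filter. These fits thus test other bordering bins, and nothing is read from their shares either.

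For HD3pr against DT40, which leaves the HD3dif libraries out of the contrast, 352 of the 1868 bordering bins were higher (18.8%) and 152 lower (8.14%) in HD3pr by the same test. Over all bins 31.8% were higher and 24.9% lower. Nothing is read from these shares either, since the bordering bins pass the filter mostly through HD3dif and their order against all bins changes with the filter. With the filter on the 4 DT40 and HD3pr libraries, 226 of 662 bordering bins were higher in HD3pr (34.1%), against 35.3% of all bins. With a filter of 5000 in place of 500, 129 of 278 were higher (46.4%), against 38.9%. Without DT40 replicate 1 the count was 219 of 1820 (12.03%), against 32.0% of all bins.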

How the data were processed

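RNA was measured in 6 libraries (TRIzol, RiboZero, TruSeq Stranded). According to the labels and methods, the authors aligned reads to galGal4 with TopHat2 2.0.12 and Bowtie2 2.2.1 and deposited bedtools 2.16.2 coverage signal per base, unscaled, and HTSeq counts per Ensembl gene. The strand, split-read and multiple-mapping settings of the coverage are not given in the sources used here. Gaps of spliced reads appear as coverage, and both strands are in 1 track. The read layout is not given either.

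Covered bases and summed coverage were computed per 5 kb bin (Python 3.11.15, numpy 2.4.6, pandas 2.3.3); the last bin ends at the last covered base of any library. Reads are summed coverage divided by 100, since 92.1% to 92.4% of isolated intervals of value 1 were exactly 100 bases long. The deposited counts served only for depths (reads not assigned to genes included) and TMM factors (edgeR 4.0.16). Coverage is no count, so limma 3.58.1 (R 4.3.3, trend) was fitted to log2(coverage per base per 1e+09 of summed coverage + 0.001) in all 6 libraries. The fit used groups from the labels and no other covariate. It was tried on simulated data without spliced gaps, with changes placed only in bins of higher coverage. That trial does not cover low bins such as the median bordering bin. Fold changes on this log2 scale understate changes of low bins. The methods call the replicates biological and the labels do not name separate cultures; p-values measure the spread between these libraries.

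The bins, alternatives and lists were chosen with earlier results of these data known. Named were the 10 longest stretches, the 10 bins highest in the lower HD3dif library, and the bins just inside and outside the rule; other places were chosen after their values were seen. A planned edgeR test of genes was not run: it served only genes in these bins and marker lists, and 0 gene identifiers matched the gene table, which is of another assembly. No sequences are shown for the same reason. The 5C and C-TALE maps were not used here. Alternatives were other thresholds, bin sizes, scales and filters, and each library left out.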

Additional observations from a re-analysis of the deposited data

How the results depend on the processing

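The count of bins depends on how coverage is defined. Against 8010 bins, it was 598 with at least 500 covered bases in both HD3dif libraries, 21165 in bins of 1 kb and 4335 in bins of 10 kb. The number of all bins differs between bin sizes. As a share of all bins of their size, these counts were 6.63%, 0.495%, 3.50% and 7.17%. Leaving out each library gave 9299 to 15086, the highest without HD3dif replicate 1 and 12945 without HD3dif replicate 2. The other 4 alternatives stayed within 1.5 times.

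The share of bins with a neighbour in the set (35.8%) was 34.1% and 27.3% with at least 100 and 500 covered bases, 42.0% with up to 100 covered bases allowed in each DT40 and HD3pr library, 44.8% and 40.8% in bins of 1 kb and 10 kb, and 54.1% when 1 other bin could be bridged. It was 38.8% to 55.3% without single libraries. The share on chromosome 1 (38.7%) was 36.8% with at least 500 covered bases and 34.3% in bins of 1 kb, and 38.0% to 38.5% without single libraries. Levels and the share covered again in a library not used for the choice moved by less than the spread between replicates.

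Of the bordering bins, 1187 were higher in HD3dif than in HD3pr. That is 63.5% of those tested, against 35.6% of all bins. It was 747 (39.99% against 29.3%) with a pseudocount of 0.0001, 168 of 278 (60.4% against 32.3%) with a filter of 5000, 261 of 662 (39.4% against 30.6%) with the filter on DT40 and HD3pr libraries (chosen after seeing the data), and 3765 of 7003 (53.8% against 35.6%) with 4 bins on each side. With no filter it was 1477 of 10043 (14.7% against 26.4%). It was 202 to 1141 without single libraries, lowest without an HD3dif library (20.8% against 21.3%, and 21.3% against 21.6%). For HD3pr against DT40 the 352 (18.8% against 31.8%) became 182 (9.74% against 29.2%) with a pseudocount of 0.01, 129 of 278 (46.4% against 38.9%) with the filter of 5000, 226 of 662 (34.1% against 35.3%) with the filter on DT40 and HD3pr libraries, 1784 of 7003 (25.5% against 31.8%) with 4 bins on each side, and 219 to 329 without single libraries. An adjusted p below 1e-07 gave 0 calls in both contrasts with limma, where 1366 and 591 bordering bins had an unadjusted p below 0.05; no other tool was run. The replicate numbers did not pair the libraries (correlations of replicate differences -0.02, 0.01 and 0.00), and a replicate block gave 1081 and 327. The alternatives of the gene test were not run. The causes of these shifts were not tested. With 2 reads in the median bin, a 0 or a covered base often turns on a single fragment, so depth limits every count here.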
